A study of Homo sapiens with 14 samples.

Results

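The lysine demethylases that remove methyl groups from lysine 4 (H3K4) and lysine 27 (H3K27) of histone H3 are described here at the level of their mRNA. The 7 genes were taken by symbol: KDM1A, KDM1B, KDM5A, KDM5B, KDM5C, KDM6A and KDM6B, of 23106 gene symbols counted in each library. All 7 were present and all 7 passed the filter on low counts in every comparison. PolyA RNA-seq had been performed on PC3 cells, a prostate cancer line, and HCT116 cells, a colon cancer line, with no modification or added agent named in the labels. Incubation was in normoxia (21% O2) or in hypoxia (0.5% O2) for 16 h. There were 4 PC3 and 3 HCT116 libraries in each condition. PC3 was grown in DMEM/Hams F12 and HCT116 in McCoy's 5a, both with fetal bovine serum, and each line stands for its tissue by 1 line only.

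The 7 enzymes belong to a flavin-dependent and an iron-dependent class. KDM1A (LSD1) and KDM1B (LSD2) are flavin-dependent amine oxidases that remove methyl groups from mono- and dimethylated H3K4. They cannot act on the trimethylated form. The KDM5 and KDM6 enzymes carry a Jumonji C (JmjC) domain and use iron, 2-oxoglutarate and molecular oxygen. KDM5A, KDM5B and KDM5C act on di- and trimethylated H3K4, a mark of active promoters, whereas KDM6A (UTX) and KDM6B (JMJD3) act on di- and trimethylated H3K27, the mark laid down by Polycomb repressive complex 2 (PRC2). Because these enzymes consume oxygen, they are studied in hypoxia both as possible oxygen sensors and as genes whose transcripts may themselves change. The hypoxia-inducible factors (HIF) bind DNA at sites built around the letters ACGTG or GCGTG.

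In the GRCh37 annotation KDM1A lies on chromosome 1 (23345936 to 23410182, plus strand), KDM1B on chromosome 6 (18155560 to 18224085, plus), KDM5A on chromosome 12 (389223 to 498486, minus) and KDM5B on chromosome 1 (202693623 to 202777615, minus). KDM5C (53205465 to 53254604, minus) and KDM6A (44732434 to 44972024, plus) both lie on chromosome X, and KDM6B lies on chromosome 17 (7737535 to 7758114, plus). Of the exons of the canonical transcripts, only KDM5A shared any bases with another counted gene, 48 of 10701 with CCDC77. KDM5C and KDM6A have close paralogues on the Y chromosome, and how the counting treated reads that match both copies is not given in the sources used here.

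The promoters are shown for 4 of the genes, from 250 bases before to 50 bases after the start in RefSeq (GRCh38.p14), 5′ to 3′ on the gene's own strand. They were chosen to set side by side KDM1A and KDM5B, the genes that rose in PC3, KDM5C, which rose in HCT116, and KDM6A, which passed the threshold in neither line. Capitals mark ACGTG or GCGTG read on either strand, so that CACGT and CACGC are matches on the opposite strand and CACGTG holds a match on both.
KDM1A, chr1:23019218-23019517, plus strand: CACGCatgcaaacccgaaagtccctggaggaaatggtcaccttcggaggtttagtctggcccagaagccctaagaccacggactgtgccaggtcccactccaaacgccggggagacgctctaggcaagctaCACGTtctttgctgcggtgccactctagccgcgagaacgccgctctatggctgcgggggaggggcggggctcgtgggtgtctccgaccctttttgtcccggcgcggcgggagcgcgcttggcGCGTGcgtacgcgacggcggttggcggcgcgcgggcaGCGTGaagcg
KDM5B, chr1:202808372-202808671, minus strand: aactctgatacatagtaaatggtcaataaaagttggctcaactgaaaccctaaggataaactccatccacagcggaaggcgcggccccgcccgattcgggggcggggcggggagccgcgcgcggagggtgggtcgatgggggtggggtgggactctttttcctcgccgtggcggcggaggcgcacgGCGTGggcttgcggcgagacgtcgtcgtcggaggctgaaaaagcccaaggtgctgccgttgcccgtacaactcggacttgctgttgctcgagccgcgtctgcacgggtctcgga
KDM5C, chrX:53225158-53225457, minus strand: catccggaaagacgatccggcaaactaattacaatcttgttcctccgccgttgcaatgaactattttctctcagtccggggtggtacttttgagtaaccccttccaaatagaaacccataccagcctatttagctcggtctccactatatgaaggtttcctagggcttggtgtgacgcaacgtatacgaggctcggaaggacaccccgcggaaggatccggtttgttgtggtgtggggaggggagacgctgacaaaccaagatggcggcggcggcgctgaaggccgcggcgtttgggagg
KDM6A, chrX:44872938-44873237, plus strand: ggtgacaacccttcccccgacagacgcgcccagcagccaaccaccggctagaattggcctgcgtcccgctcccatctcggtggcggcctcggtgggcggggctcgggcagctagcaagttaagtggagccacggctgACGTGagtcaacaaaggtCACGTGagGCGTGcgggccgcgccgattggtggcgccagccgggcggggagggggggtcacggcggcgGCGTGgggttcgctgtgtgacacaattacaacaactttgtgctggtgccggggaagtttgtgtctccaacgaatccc
The KDM6A promoter held 3 matches to ACGTG and 2 to GCGTG, and 2 of the former overlap in 1 CACGTG. In KDM1A there were 1 and 3 matches, in KDM5B there was a single GCGTG, and the KDM5C window held neither motif. KDM1B and KDM5A each had 1 GCGTG. Of the 2 starts of KDM6B in the RefSeq table, 1 had a GCGTG and the other had no match. Such matches are common, since 54.6% of 20253 promoters of counted genes held at least one of the motifs. No binding was measured in the data used here.

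The libraries held 71228454 to 150630928 counts in genes, and the 7 demethylases had between 1042 and 50168 counts each in every library. The 8 HIF target genes used as a check of the hypoxic condition all rose in both lines, with a median log2 fold change of 1.66 in PC3 and 2.89 in HCT116. Epithelial markers were high in both lines, with a summed level of 2823 to 3959 CPM, the counts scaled to the library size. HOXB13 (81.0 CPM) was the highest of the 6 prostate markers in PC3 at normoxia, where 3 of the 6, among them the androgen receptor, stayed at or under 1 CPM in each library. In HCT116, CDX2 was the only one of 6 colon markers above 1 CPM. Leukocyte markers other than CD68 were at or under 1 CPM in each library of both lines, and CD68, which is not restricted to leukocytes, rose with hypoxia.

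KDM1A had the highest level of the 7 genes per kb of canonical transcript, and its mRNA was lower in PC3 than in HCT116 at normoxia. Divided by the length of the canonical transcript, KDM1A stood at 56.8 ± 6.64 CPM per kb (SD, n = 4) in PC3 at normoxia and at 107.1 ± 4.96 CPM per kb (SD, n = 3) in HCT116. KDM5C followed with 20.7 ± 1.63 and 13.6 ± 0.656 CPM per kb, and KDM1B with 11.7 ± 1.24 and 8.1 ± 0.663 CPM per kb. The order KDM1A, KDM5C, KDM1B was the same in all 4 groups, with no overlap between the libraries of neighbouring genes.

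The other 4 demethylases were lower and closer together. In PC3 at normoxia KDM6A (6.69 ± 0.277 CPM per kb) and KDM5B (6.53 ± 0.719) overlapped, followed without overlap by KDM5A (4.10 ± 0.200) and KDM6B (2.38 ± 0.332). In HCT116 at normoxia these 4 genes lay within 2.90 to 3.67 CPM per kb, where KDM5A overlapped with KDM6B and KDM6B with KDM5B. Under hypoxia PC3 kept all neighbours apart, with KDM5B (8.59 ± 0.783 CPM per kb) now above KDM6A (6.46 ± 0.400). In HCT116 under hypoxia the same 4 genes, from KDM5B at 4.43 ± 0.781 to KDM6B at 3.91 ± 0.227 CPM per kb, could not be ordered beyond their spread. This order depended on the length used. With all annotated exons of a gene joined, an alternative added after the data were seen, KDM6A became the lowest of the 7 in all 4 groups (1.47 CPM per kb in PC3 at normoxia), and KDM5C, KDM1A and KDM1B overlapped in PC3 at 9.77, 9.56 and 9.44 CPM per kb.

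**Figure D1:**
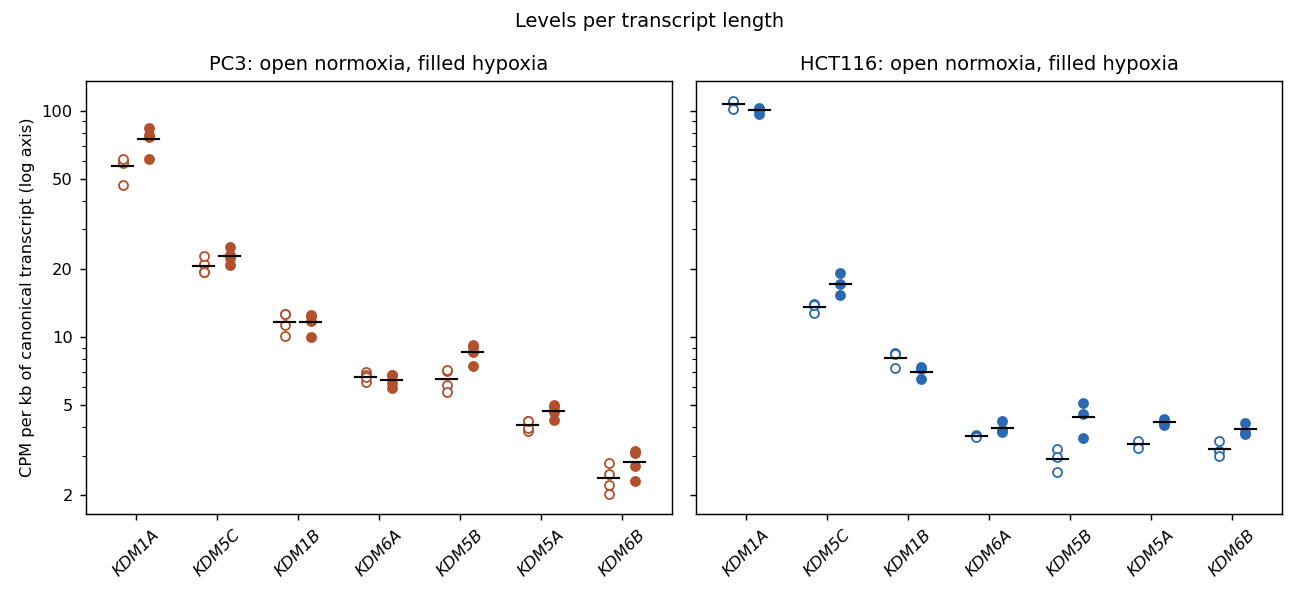
Level of each demethylase per kb of its canonical transcript, on a log axis, in PC3 (left) and HCT116 (right). Points are libraries, open for normoxia and filled for hypoxia, and bars are group means. KDM1A, KDM5C and KDM1B lie above the other genes in both lines, and the 4 lower genes are spread out in PC3 but bunched in HCT116.

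All 7 demethylases differed between PC3 and HCT116 at normoxia (quasi-likelihood test of edgeR, adjusted by Benjamini-Hochberg), in a comparison in which 81.3% of the 15493 genes tested did so. KDM5B, KDM6A, KDM5C, KDM1B and KDM5A were higher in PC3, a direction in which 42.4% of all genes were called, and KDM1A and KDM6B were lower, as were 38.9%. KDM5B differed most, with a log2 fold change of 1.17 (SE 0.13, adjusted p = 4.79e-07), from 26.9 ± 3.16 CPM (SD, n = 3) in HCT116 to 60.7 ± 6.68 CPM (SD, n = 4) in PC3. KDM6A was 0.87 (SE 0.07) and KDM5C 0.61 (SE 0.09) higher on the log2 scale. KDM1B was higher by 0.53 (SE 0.10) and KDM5A by 0.28 (SE 0.07). KDM1A had a log2 fold change of -0.92 (SE 0.11, adjusted p = 8.78e-07) and KDM6B one of -0.43 (SE 0.12, adjusted p = 0.00347). The normoxic libraries of the lines did not overlap in any of the 7 genes, as in 82.4% of all genes tested. The median absolute log2 difference was 0.61 for the demethylases against 0.888 for all genes, so their differences were not large for this comparison. Line and culture medium cannot be told apart.

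The make-up of each family, as shares of its summed CPM per kb over canonical transcripts, also differed by line. KDM1A made up 82.9% ± 0.764 (SD, n = 4) of the KDM1 pair in PC3 at normoxia and 93.0% ± 0.260 (SD, n = 3) in HCT116. KDM6B made up 26.2% ± 2.39 of the KDM6 pair in PC3 and 46.6% ± 1.58 in HCT116. Within the KDM5 family KDM5C was the main transcript in both, with 66.1% ± 1.45 in PC3 and 68.4% ± 2.39 in HCT116. KDM5B held 20.8% ± 1.80 of that family in PC3 and 14.6% ± 1.87 in HCT116. The sum of the 3 KDM5 genes was 31.4 ± 2.18 CPM per kb at normoxia and 36.2 ± 2.20 under hypoxia in PC3, and 19.9 ± 0.291 and 25.9 ± 2.57 in HCT116. No test was run on these sums. These shares rest on the canonical lengths. With the joined exons KDM6B was above KDM6A at normoxia, at 2.17 against 1.47 CPM per kb in PC3 and 2.92 against 0.805 in HCT116. KDM1A and KDM1B then overlapped in PC3 at normoxia, at 9.56 and 9.44 CPM per kb. KDM1A stayed above KDM1B in HCT116, and KDM5C stayed the highest KDM5 gene in both lines.

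The next comparison asks how the demethylase transcripts respond to low oxygen within each line. In PC3, KDM1A and KDM5B rose, by 0.41 and 0.40 on the log2 scale, and no member fell. In HCT116 the 3 KDM5 genes and KDM6B rose, by 0.30 to 0.63, and no member fell. That is 2 of 7 genes against 6.03% of 14309 genes called higher in PC3, and 4 of 7 against 14.6% of 14120 genes called higher in HCT116. The libraries of the groups did not overlap in 3 of the 7 in PC3 and 5 of the 7 in HCT116, against 20.9% and 42.5% of all genes. In the lower direction edgeR called 5.29% of genes in PC3 and 11.3% in HCT116, against 0 of the 7. DESeq2 also called 0 of the 7 lower, where it called 1209 of 14309 genes lower in PC3 and 1976 of 14120 in HCT116. At an unadjusted p under 0.05 (edgeR) none of the 7 was lower in PC3 and KDM1B was lower in HCT116. Of all genes, 27.7% in PC3 and 38.7% in HCT116 had such a p in either direction. The median log2 fold change of the 7 genes was 0.21 in PC3 and 0.30 in HCT116, where that of all genes was 0.002 in both. Whether a change took place in all cells or in some of them cannot be told apart in bulk RNA.

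**Figure D2:**
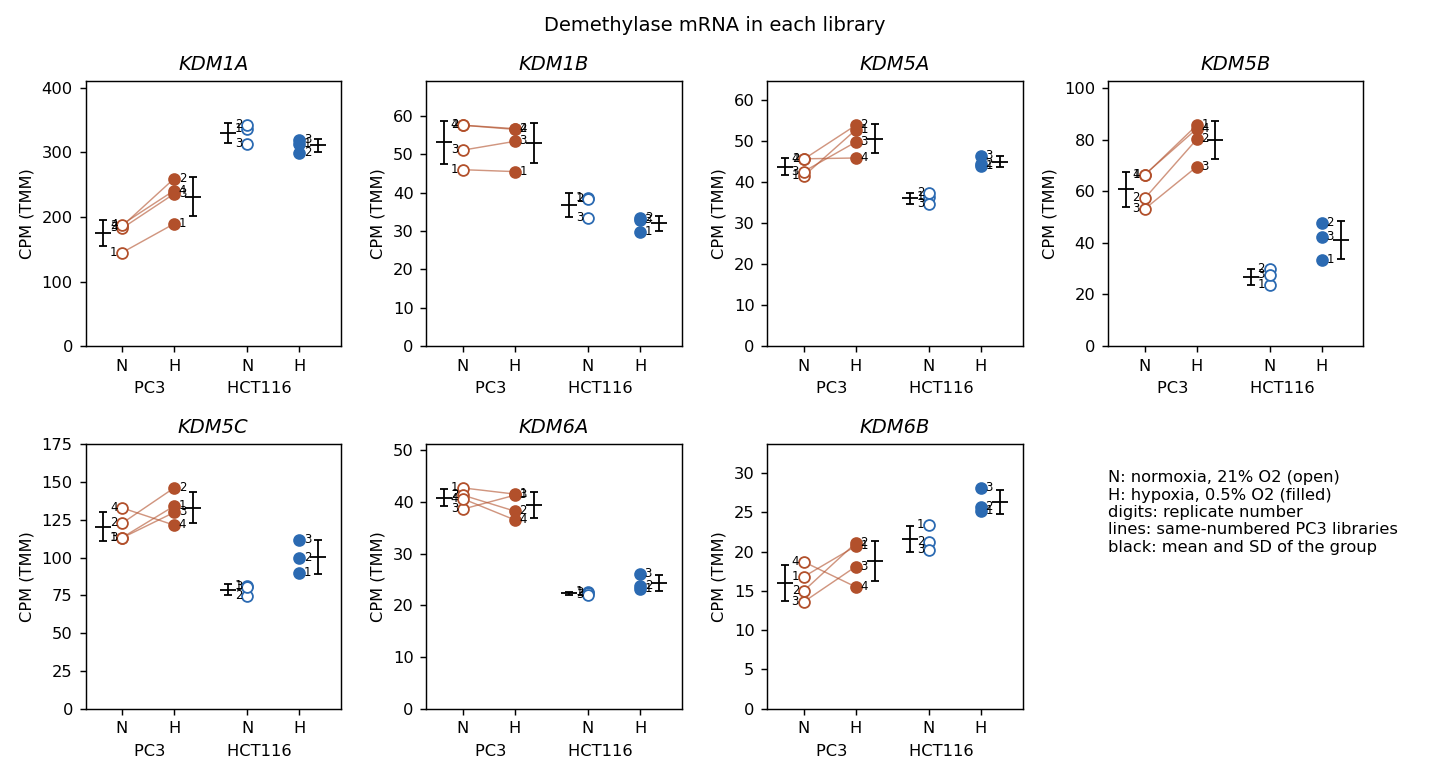
CPM of each demethylase in each library, after TMM (trimmed mean of M-values) scaling, with a y axis from 0 in each panel. Open points are normoxia (N), filled points hypoxia (H), digits are replicate numbers, lines join same-numbered PC3 libraries, and black bars give the mean and SD of the group. KDM1A and KDM5B rise along all 4 lines in PC3, while KDM5C and KDM6B fall along the line of replicate 4.

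KDM1A removes H3K4 methylation as part of the CoREST repressor complex. Its level in PC3 at normoxia was 144.7, 185.6, 182.3 and 188.2 CPM in replicates 1 to 4, and under hypoxia 189.4, 259.3, 235.8 and 240.9 CPM. Every hypoxic library was above every normoxic one, though the lowest hypoxic library, replicate 1, exceeded the highest normoxic one only narrowly, and replicate 1 was the lowest of both groups. The log2 fold change was 0.41 (SE 0.11, 95% interval 0.16 to 0.65, adjusted p = 0.0412, edgeR), and it was higher by 0.36 to 0.48 in 4 of 4 same-numbered pairs. With the replicate number as a block, a pairing found in the data and not stated by the labels, the adjusted p was 0.00159 (edgeR). In HCT116 its level was 336.1, 342.0 and 313.0 CPM at normoxia and 312.8, 299.4 and 319.4 CPM under hypoxia, and the groups overlapped. There the log2 fold change was -0.07 (SE 0.06, 95% interval -0.21 to 0.07, adjusted p = 0.428, edgeR).

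KDM1B, the second flavin-dependent H3K4 demethylase, showed no such rise. In PC3 it stood at 46.0, 57.6, 51.1 and 57.6 CPM at normoxia and at 45.5, 56.5, 53.4 and 56.7 CPM under hypoxia. These groups overlapped almost fully, and the log2 fold change was 0.004 with a 95% interval of -0.20 to 0.21. In HCT116 it was 38.7, 38.3 and 33.3 CPM at normoxia against 29.7, 33.4 and 32.8 CPM under hypoxia. Only the third normoxic replicate lay within the hypoxic range, and the log2 fold change of -0.18 (SE 0.08, adjusted p = 0.091, edgeR) did not pass the threshold. KDM1A thus came to a larger share of the KDM1 pair under hypoxia in PC3, 86.5% ± 0.505 (SD, n = 4) against 82.9% ± 0.764, with no overlap between the libraries. In HCT116 its share was 93.5% ± 0.497 (SD, n = 3) under hypoxia and 93.0% ± 0.260 at normoxia, and the libraries overlapped.

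KDM5B (JARID1B) was the only one of the 7 past the threshold in both lines by edgeR with each line fitted alone and no block. With the replicate block, by DESeq2 and in a single edgeR fit over both lines, KDM5A passed in both as well. In PC3, KDM5B was at 66.2, 57.2, 53.1 and 66.4 CPM in normoxia and at 85.6, 80.1, 69.5 and 84.2 CPM in hypoxia. The groups did not overlap, the log2 fold change was 0.40 (SE 0.10, 95% interval 0.18 to 0.63, adjusted p = 0.0334, edgeR), and 4 of 4 pairs rose by 0.34 to 0.49. The adjusted p with the replicate block was 0.00167 (edgeR). HCT116 cells had 23.6, 29.9 and 27.4 CPM at normoxia and 33.3, 47.7 and 42.4 CPM under hypoxia. This change, 0.63 on the log2 scale (SE 0.12, 95% interval 0.36 to 0.89, adjusted p = 0.00387, edgeR), was larger than that of 91.7% of the genes tested in HCT116. Even so, the hypoxic level in HCT116 stayed below each normoxic library of PC3.

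KDM5A (RBP2, JARID1A), first known as a partner of the retinoblastoma protein, rose in HCT116 from 36.4, 37.4 and 34.7 CPM to 44.0, 44.5 and 46.5 CPM. The groups were well apart, with a log2 fold change of 0.33 (SE 0.06, adjusted p = 0.00277, edgeR). In PC3 it stood at 41.5, 45.6, 42.6 and 45.7 CPM at normoxia and at 52.8, 53.9, 49.8 and 45.9 CPM under hypoxia. The groups did not overlap by a small margin, because replicate 4 hardly moved, and the log2 fold change of 0.21 (SE 0.07, 95% interval 0.06 to 0.37) missed the threshold (adjusted p = 0.0799, edgeR). It passed with the replicate block (adjusted p = 0.0416, edgeR) and by DESeq2 (adjusted p = 0.0278). A single fit over both lines also called it higher in PC3 (adjusted p = 0.0379, edgeR).

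KDM5C (JARID1C, SMCX), mutated in X-linked intellectual disability, rose in HCT116 from 81.5, 74.5 and 80.7 CPM to 89.6, 100.0 and 111.8 CPM. Its log2 fold change there was 0.36 (SE 0.08, adjusted p = 0.00713, edgeR), without overlap. In PC3 the normoxic libraries were at 113.2, 122.7, 113.0 and 132.9 CPM and the hypoxic ones at 134.1, 146.1, 129.9 and 121.5 CPM. Replicates 1 to 3 were higher under hypoxia and replicate 4 was lower, the groups overlapped, and the log2 fold change was 0.15 (SE 0.08, 95% interval -0.03 to 0.32, adjusted p = 0.252, edgeR).

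KDM6A, the X-linked H3K27 demethylase that sits in the KMT2C and KMT2D complexes, passed in neither line. In PC3 it was at 42.7, 41.3, 38.6 and 40.6 CPM in normoxia and at 41.5, 38.2, 41.3 and 36.5 CPM in hypoxia, overlapping groups with a log2 fold change of -0.04 (95% interval -0.20 to 0.11). In HCT116 the normoxic libraries lay close together at 22.6, 22.4 and 22.0 CPM and the hypoxic ones at 23.2, 23.8 and 26.0 CPM. Though the groups did not overlap, the log2 fold change of 0.14 (SE 0.07, 95% interval -0.004 to 0.28) did not pass (adjusted p = 0.14, edgeR).

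KDM6B, the H3K27 demethylase known as an inducible gene in inflammatory signalling, rose in HCT116 from 23.4, 21.2 and 20.2 CPM to 25.2, 25.7 and 28.1 CPM. The groups did not overlap, and the log2 fold change was 0.30 (SE 0.07, adjusted p = 0.0109, edgeR). In PC3 it was at 16.8, 15.0, 13.6 and 18.7 CPM at normoxia and at 20.7, 21.1, 18.1 and 15.5 CPM under hypoxia. As for KDM5C, replicate 4 ran against the other 3, and the log2 fold change of 0.24 (SE 0.13, 95% interval -0.05 to 0.53, adjusted p = 0.255, edgeR) did not pass.

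The calls in HCT116 were steadier than those in PC3. KDM5A, KDM5B and KDM5C stayed past the threshold in HCT116 whichever of the 6 libraries was left out, and KDM6B in 5 of 6, the exception being normoxia replicate 2 (adjusted p = 0.0513, edgeR). In PC3, fitted without the block, KDM1A stayed past it in 1 of 8 such fits, that without hypoxia replicate 1, and KDM5B in 2 of 8, those without normoxia replicate 1 and without hypoxia replicate 3. The log2 fold changes moved little, from 0.33 to 0.48 for KDM1A and from 0.34 to 0.47 for KDM5B. With the block, both genes stayed past the threshold when both libraries of any 1 PC3 replicate were left out, at adjusted p up to 0.027 (edgeR). Without both libraries of replicate 4 the blocked fit called 5 of the 7 genes higher, adding KDM5A (log2 fold change 0.28), KDM5C (0.24) and KDM6B (0.41), but it also called 3671 of 14347 genes higher, against 2125 with all pairs.

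**Figure D3:**
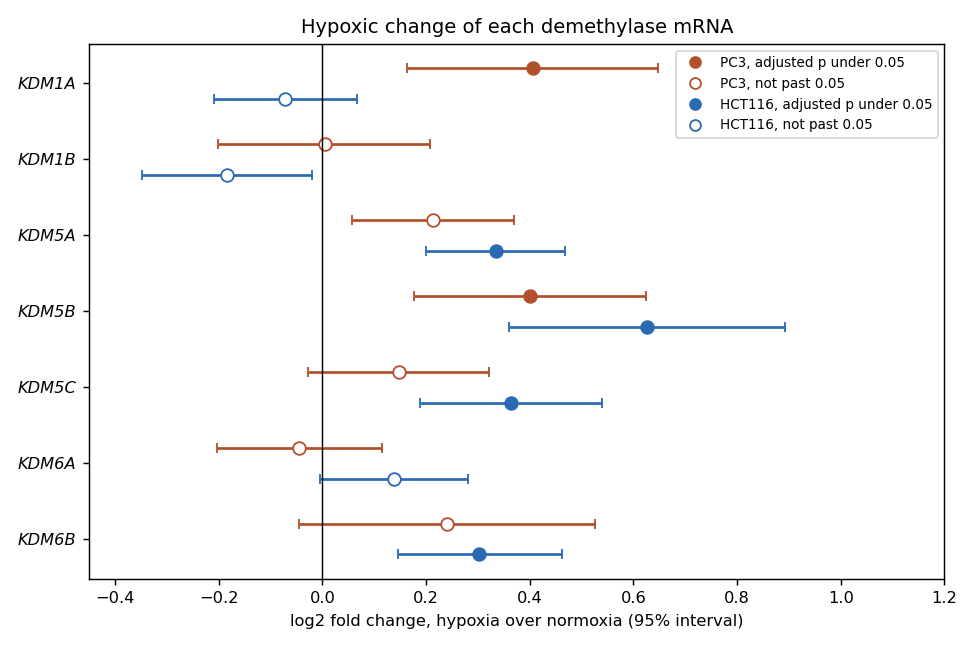
Log2 fold change of each demethylase from normoxia to hypoxia with its 95% interval, PC3 in brown and HCT116 in blue. Filled points passed an adjusted p of 0.05 in edgeR. KDM5B is the only gene with filled points in both lines, and KDM1A is filled in PC3 (0.41) but lies at -0.07 in HCT116.

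Whether the lines differed in their response was tested as the interaction of line and oxygen over all 14 libraries. None of the 7 genes passed by edgeR, where 1.01% of 15493 genes were called higher and 1.31% lower in PC3 (2.32% in all), and 1 of the 7, KDM1A, had an unadjusted p under 0.05, as had 16% of all genes. Its response was 0.49 higher in PC3 on the log2 scale (SE 0.15, 95% interval 0.17 to 0.81, adjusted p = 0.11, edgeR). That gene passed with the replicate block (adjusted p = 0.00546, edgeR), by DESeq2 (adjusted p = 0.0233) and without PC3 hypoxia replicate 1 (adjusted p = 0.0267, edgeR). For KDM5B the difference was -0.22 with a 95% interval of -0.59 to 0.16, for KDM5C -0.21 (-0.47 to 0.06) and for KDM5A -0.11 (-0.32 to 0.10). KDM6A had a difference of -0.17 (-0.38 to 0.03), KDM6B one of -0.05 (-0.41 to 0.31) and KDM1B one of 0.20 (-0.10 to 0.50). These intervals include 0 for all but KDM1A. The SEs of this test, 0.10 to 0.18 for the 7 genes, were wider than those within a line, 0.06 to 0.13. KDM5C and KDM6B, called in HCT116 and not in PC3 by edgeR, were not shown to differ between the lines.

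The scaling of the libraries bore on these calls. With scaling by total count the median change over all genes was -0.103 on the log2 scale in PC3 and -0.0903 in HCT116. The split of called genes went in PC3 from 863 higher and 757 lower to 562 and 1733, and in HCT116 from 2061 and 1597 to 1286 and 3146. Under it none of the 7 was called in PC3 (adjusted p = 0.0685 for KDM5B and 0.0958 for KDM1A, edgeR). Relative to the median of all genes both were at 0.40 with either scaling. A change of scaling moves all genes by about the same amount, so this equality is no further test of the rise. In HCT116 the 3 KDM5 genes stayed called, KDM6B did not (adjusted p = 0.0645, edgeR), and KDM1B was called lower (adjusted p = 0.0186, edgeR). With upper-quartile scaling KDM5B was called in PC3 (adjusted p = 0.0458, edgeR) and KDM1A was not (adjusted p = 0.0599, edgeR).

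Related genes were described from lists. The other JmjC demethylases, which act on H3K9 and H3K36, had 4 of 13 genes called higher and none lower in PC3, and 6 of 13 higher and none lower in HCT116. Among all PC3 genes tested 6.03% had risen and 5.29% had fallen, and among those of HCT116 14.6% and 11.3%, the shares against which the lists that follow are also to be read. KDM3A, an H3K9 demethylase and known HIF target, rose by 1.01 (SE 0.09) in PC3 and 2.42 (SE 0.09) in HCT116 on the log2 scale, and KDM4B, also acting on H3K9, by 0.77 (SE 0.07) and 1.73 (SE 0.07). Both changes exceed every change among the H3K4 and H3K27 demethylases in the same line. KDM4C rose by 0.31 and 0.79, and KDM2A, an H3K36 demethylase, by 0.31 and 0.43. KDM3A and KDM4B differed in response between the lines, by -1.40 (adjusted p = 6.04e-05, edgeR) and -0.95 (adjusted p = 7.77e-05, edgeR), PC3 minus HCT116. The median log2 fold change of this list was 0.15 in PC3 and 0.21 in HCT116, against the 0.21 and 0.30 of the H3K4 and H3K27 demethylases.

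**Figure D4:**
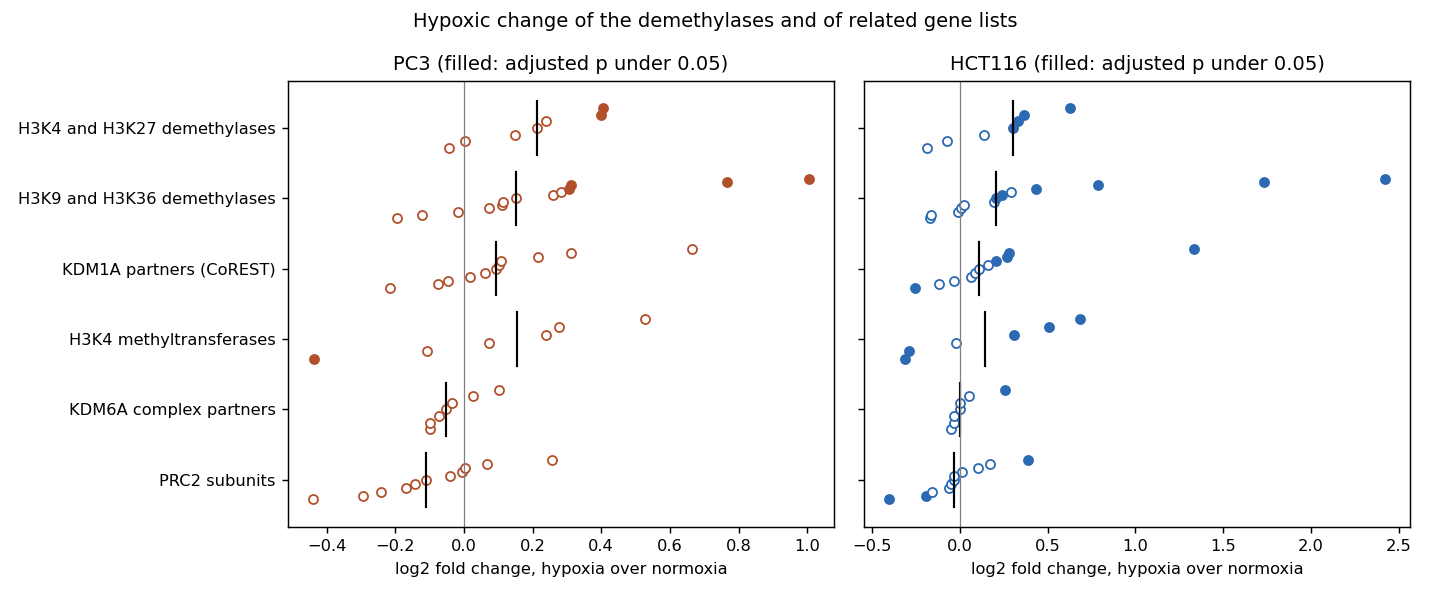
Log2 fold changes of the 7 demethylases and of 5 lists of related genes in PC3 (left) and HCT116 (right), each with its own x axis. Each point is a gene, filled where the adjusted p was under 0.05 in edgeR, and the bar is the list's median. The largest changes are those of KDM3A and KDM4B among the H3K9 and H3K36 demethylases. The median of the PRC2 list is -0.11 in PC3 and -0.04 in HCT116, and that of the KDM6A complex list -0.05 and 0.

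Partners of KDM1A in the CoREST complex passed in PC3 in 0 of 11 cases by edgeR, 4 at an unadjusted p under 0.05 and 2 by DESeq2. Among all 14309 PC3 genes tested 27.7% had such an unadjusted p, and DESeq2 called 1392 higher and 1209 lower. In HCT116, 4 of the 11 rose and 1 fell. RCOR2, a CoREST scaffold, rose there from 8.66 ± 0.830 to 21.6 ± 0.739 CPM (SD, n = 3), a log2 fold change of 1.34 (SE 0.08, adjusted p = 6.91e-07, edgeR), and was at 0.832 and 1.32 CPM in PC3. RCOR1, the CoREST scaffold after which the complex is named, rose by 0.27 in HCT116 and was 0.22 higher in PC3 without passing (adjusted p = 0.0781, edgeR). The zinc finger partners ZMYM3 and ZMYM2 changed by 0.28 and -0.25 in HCT116. GLYR1, the partner of KDM1B, had log2 fold changes of -0.05 in PC3 and -0.12 in HCT116 and passed in neither line, by edgeR, at an unadjusted p under 0.05 or by DESeq2.

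Of the 6 H3K4 methyltransferases, which oppose the KDM1 and KDM5 enzymes, SETD1B was called lower in both lines, with log2 fold changes of -0.44 (SE 0.08, adjusted p = 0.00821, edgeR) in PC3 and -0.31 (SE 0.08, adjusted p = 0.0136, edgeR) in HCT116. In PC3 it was the only one of the list called by edgeR, and DESeq2 also called MLL3 higher. In HCT116 3 rose and 2 fell. MLL (KMT2A) rose in HCT116 by 0.68, MLL2 (KMT2D) by 0.51 and MLL3 (KMT2C) by 0.31. In PC3 the same genes were 0.24, 0.28 and 0.53 higher without passing by edgeR.

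Partners of KDM6A in the KMT2C and KMT2D complexes had median log2 fold changes of -0.05 in PC3 and 0 in HCT116. In PC3 none of 7 passed by edgeR, at an unadjusted p under 0.05 or by DESeq2, and in HCT116 ASH2L alone did, with a rise of 0.26 (SE 0.07, adjusted p = 0.0153, edgeR) and a difference between the lines of -0.35 (adjusted p = 0.0443, edgeR). Among the 11 subunits of PRC2, which methylates the lysine that KDM6A and KDM6B demethylate, none passed in PC3 by edgeR or DESeq2. An unadjusted p under 0.05 was found for 3 of them there, and for 27.7% of all PC3 genes tested. The median log2 fold change of the list was -0.11 in PC3 and -0.04 in HCT116. In HCT116 1 of the 11 rose and 2 fell, against 14.6% and 11.3% of all genes. JARID2, a JmjC protein without demethylase activity, rose there by 0.39. The catalytic subunits EZH1 and EZH2 fell there by 0.40 and 0.19 on the log2 scale.

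The genes most like each demethylase over the 14 libraries were found by the root mean square (RMS) difference of centred log2 CPM among 11192 genes. For KDM6A the nearest was ZNF317 at 0.0459, and for KDM5A it was MED13 at 0.0609. KDM1B lay nearest to SLC35B4 (0.0806) and KDM5C to KHNYN (0.0865). KDM6B lay nearest to BAZ2A (0.102), KDM1A to TCF3 (0.106) and KDM5B to PINK1 (0.107). The next nearest were DYRK1A and FTSJD2 for KDM6A, PLAGL1 and IQGAP1 for KDM5A, CDK18 and OPA1 for KDM1B, and PTPN14 and KANSL3 for KDM5C. For KDM6B they were SPEN and BRD3, for KDM1A CBX2 and TRMU, and for KDM5B RAB6A and S100A10. The median difference over all genes was 0.427 to 0.690, and since the libraries fall into 2 lines, this likeness reflects the step between the lines as well as the response to hypoxia.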

How the data were processed

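PolyA RNA-seq of PC3 (4 replicates per condition) and HCT116 (3 per condition) was used. Per the study's methods the replicates were biological. The authors aligned reads with HISAT2 (2.05) to the ERCC spike-ins, and the remaining reads to GRCh37, counted reads per RefSeq gene with HTSeq (0.5.4p3, intersection-strict) and deposited the count of each gene without normalisation. Strand setting and RefSeq release are not given in the sources used here. The submitters' processing notes also name SAMtools and DESeq2. ERCC counts and ChIP-seq were not analysed here, so a change shared by all mRNAs was not measured.

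Counts were tested with edgeR (4.0.16, R 4.3.3): filterByExpr, TMM scaling and the two-sided quasi-likelihood test with Benjamini-Hochberg adjustment over all genes tested, at 0.05. Each line was fitted on its own. The interaction and the comparison of the lines used all 14 libraries. The SE was taken from the unshrunk log2 fold change over the root of the F statistic. CPM used TMM factors over all 14 libraries. Levels between genes were divided by canonical transcript lengths (GENCODE on GRCh37). Same-numbered PC3 libraries deviated together (correlation 0.115 to 0.595 in all 4 pairs), so the numbers were taken as pairs there. This pairing was found in the data and not stated by the labels. The main fits had no block, and the pairing entered as a block only in alternative fits. Differently numbered PC3 libraries had correlations of -0.331 to 0.141. The pair of replicate 3, at 0.115, was thus not set apart from them, and the blocked results in PC3 rest on this pairing. Alternatives were 3 other scalings, 2 other filters, DESeq2 (1.42.0), a replicate block, a single fit over both lines and each library left out. The fits were tested on simulated data, where the test of the difference between the lines recovered fewer of the changes put in than the tests within a line.

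The 7 genes and all lists were chosen with earlier results of these data known. From each list up to 4 genes past the threshold with the largest absolute change in either line were named, with the 3 genes most like each demethylase. Promoters and motifs were read from RefSeq (GRCh38.p14). The 95% intervals are those of the fitted log2 fold change, taken from its SE, and rest on these libraries only.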

Additional observations from a re-analysis of the deposited data

Results flagged for a closer look

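One value stood apart from its group. KDM1A in PC3 normoxia replicate 1 was at 144.7 CPM, while the other 3 normoxic libraries lay between 182.3 and 188.2 CPM, a gap of 0.864 of the group's range. The hypoxic library of the same number, at 189.4 CPM, was also the lowest of its group. It was 1 value in 14 groups of 4 that were examined, and chance gives about 1 in 20 groups. Without PC3 normoxia replicate 1 the log2 fold change of KDM1A was 0.33 (adjusted p = 0.0656, edgeR), and without both libraries of replicate 1 it was 0.41 (adjusted p = 0.00862, edgeR).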

How the results depend on the processing

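In PC3 the number of the 7 genes called higher was 2. It was 3, with KDM5A added, by DESeq2, with the replicate block and in a single fit over both lines, 1 with upper-quartile and 0 with total-count scaling, 0 to 2 when 1 library or both libraries of 1 replicate number were left out, and 5 with the replicate block and without both libraries of replicate 4. In HCT116 it was 4, but 3 with total-count scaling and in the single fit, and 3 to 4 with 1 library left out. None was called lower in either line, apart from KDM1B in HCT116, 1 gene with total-count scaling and 0 to 1 with 1 library left out. For the difference between the lines it was 0, and 1 (KDM1A) with DESeq2, 1 with the replicate block and 0 to 1 with 1 library left out. The 5 higher and 2 lower genes between the lines at normoxia stayed in every alternative run.

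Genes called higher and lower in PC3 numbered 863 and 757. They were 562 and 1733 with total-count scaling, 1392 and 1209 with DESeq2, and 2125 and 1949 with the replicate block. The lower calls were 1246 in a single fit over both lines. With 1 library left out they ranged from 364 to 1143 and from 189 to 942, the lowest without normoxia replicate 3. With both libraries of a replicate number left out they ranged from 115 to 1007 and from 14 to 776, the lowest without replicate 2, and 63 were lower without replicate 3. With the block they were 3671 and 3388 without both libraries of replicate 4, and 449 were lower without those of replicate 2. In HCT116, 2061 and 1597 became 1286 and 3146 with total-count scaling and 938 and 795 in the single fit, and 1378 to 1853 and 1068 to 1486 with 1 library left out. The calls of the line difference, 156 and 203, became 470 and 504 with DESeq2, 596 and 710 with the replicate block, and 78 to 294 and 94 to 423 with 1 library left out. Between the lines at normoxia the leave-outs gave 6374 to 6666 and 5778 to 6258. The cause of these shifts was not tested.

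HCT116 libraries shared only a number (same-number correlation 0.0595 to 0.0882, each library nearest to its own number, a hint from the data), and the block changed none of the calls on the 7 genes there. Small values changed sign: KDM1B in PC3 was 0.004, and -0.04 with upper-quartile scaling, -0.1 with total-count scaling, -0.00029 with at least 10 counts in every library, -0.0014 in the single fit, -0.0079 with the block and without both libraries of replicate 3, and -0.052 to 0.064 with 1 library left out (-0.052, -0.022, -0.014 and -0.025 where below 0, and -0.0078 without both libraries of replicate 3). The line difference of KDM6B ranged from -0.12 to 0.031 with 1 library left out, and turned to 0.031 and 0.026 without the normoxic and the hypoxic library of PC3 replicate 4. KDM6B in HCT116 lost its call in the single fit (adjusted p = 0.161, edgeR). The 7 genes had at least 1042 counts in each library, and the PC3 hypoxia libraries (71228454 to 96159803 counts) were shallower than the PC3 normoxia libraries (98021966 to 123935458). The part of depth in these calls was not tested. The use of joined exon lengths was chosen after seeing the data, as was leaving out both libraries of a PC3 replicate.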
